A study of Mus musculus with 20 samples.

Results

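The genes described here act in the retinoic acid response and in retinoid handling: Cyp26a1, Rarb, Rbp4 and Lrat. They were chosen by name, with every probe whose only gene symbol in the platform annotation was that of a member, and with the level of Cyp26a1 in view, which was low with SEAP-M control siRNA and high with PPARa-M siRNA. The values that chose the members are therefore given as a description, with no test: Cyp26a1 wherever the PPARa-M or the SEAP-M mice enter, and every gene in the difference of those 2 groups. Of the 4 members, 2 were measured, Cyp26a1 and Lrat with 1 probe each, among 15252 genes with such a probe. Rarb and Rbp4 had no single-symbol probe in the annotation used here and were not analysed here. Livers came from 20 mice, 4 in each of 5 groups, taken 48 h after a hydrodynamic tail vein injection, in which a large fluid volume (10% of the body weight) is pushed rapidly into the vein. Every mouse received Ringer's solution in this way: 1 group received it alone (vehicle), and the other groups received it with 40 µg of an siRNA. PPARa siRNA and PPARa-M siRNA target different fragments of Ppara mRNA, and the control siRNAs, GL3 and SEAP-M, are labelled as directed at GL3 and at SEAP (secreted alkaline phosphatase). The labels give no strain, sex or age for the mice, and do not say what the M in a name stands for. Each array set the liver RNA of 1 mouse against a pool from 4 vehicle mice, and a value is the log10 ratio of mouse to pool. The base 10 and the direction mouse over pool are not stated with the values. The direction is likely, since the labels name the pool first and the mouse second and Ppara was lower with PPARa-M siRNA. If it were the reverse, every sign below would turn.

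Retinoic acid, the active form of vitamin A, binds retinoic acid receptors (RARs), which pair with retinoid X receptors (RXRs) on DNA. PPARα, the nuclear receptor encoded by Ppara, pairs with RXRs as well. In liver, retinol is esterified by Lrat and stored as retinyl esters in stellate cells, is carried out into plasma by Rbp4, and is oxidised by way of retinal to retinoic acid. Cyp26a1 encodes the cytochrome P450 that hydroxylates all-trans retinoic acid and so clears it. Cyp26a1 and Rarb, which encodes RARβ, are both induced by retinoic acid through response elements near their promoters.

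The response element of Cyp26a1 is shown because this gene carries the widest range of values among the members. Cyp26a1 lies at chr19:37697738-37701536 and Lrat at chr3:82892582-82903974 (RefSeq, GRCm38.p6). The window of 300 bases at the Cyp26a1 start, chr19:37697558-37697857 on the plus strand, which overlaps the annotated span of the gene, is printed with the element in capitals.
Cyp26a1 promoter: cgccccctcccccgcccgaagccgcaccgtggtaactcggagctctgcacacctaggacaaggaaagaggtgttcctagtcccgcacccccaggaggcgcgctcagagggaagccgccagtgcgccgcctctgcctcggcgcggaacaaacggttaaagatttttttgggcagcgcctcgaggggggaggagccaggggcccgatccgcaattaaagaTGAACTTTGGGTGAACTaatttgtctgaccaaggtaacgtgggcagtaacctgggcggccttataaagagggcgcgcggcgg
Cyp26a1 element, read along the repeat: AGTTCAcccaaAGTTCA
The capitals are a DR5, a direct repeat of a 6-base unit with 5 bases between its copies, where the unit is A or G, then G, then G or T, then T, C and A. The match lies at chr19:37697776-37697792, on the strand opposite to the gene. It covers positions -32 to -16 from the start that the promoter table uses, which is downstream of the first base of the annotated span, so the match is inside that span. Both strands of 300-base windows (250 bases before to 50 after each start) were searched, and a DR5 was present in 32 of 32851 windows (0.0974%). The same unit spaced by 2 bases (DR2) was present in 88 windows (0.268%) and spaced by 1 base (DR1) in 73 (0.222%). Among 107 members and pathway genes, 78 had a window, and the DR5 was present in Cyp26a1 and Rarb, the DR1 in Bco1, and the DR2 in 0. The Lrat window held none of the 3. A match is a description of letters, not a bound site.

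The targeted gene was examined first. Mean Ppara over its 4 probes was 58.6% of vehicle in the PPARa-M mice, with no overlap of the groups (two-sided exact permutation test, p = 0.0286, the smallest that 4 against 4 mice allow), and all 4 probes passed limma's test (a probe is called when its Benjamini-Hochberg adjusted p over all 23493 probes is under 0.05). In the PPARa siRNA mice it was 78.8% of GL3 (exact permutation p = 0.0857), and 0 of 4 probes were called, by limma. Array medians lay between -0.0093 and 0.006 (log10), but the interquartile range of an array ran from 0.0442 to 0.124, so that the arrays differed in spread. The lowest correlation between 2 arrays was -0.255. Among 11 periportal hepatocyte markers (16 probes), Ass1 was called lower than vehicle in each of the 4 siRNA groups (log2 -0.695 to -0.412), and with PPARa-M siRNA Asl was called higher (0.38) and Igf1 lower (-0.28), so the list did not move one way. A whole-liver sample cannot tell fewer cells of a type from less RNA per cell.

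Cyp26a1 was lowest in the SEAP-M mice and highest in the PPARa-M mice. The log10 ratios were -0.0921, 0.1716, -0.2037 and 0.0278 in vehicle mice A to D (mean -0.0241 ± 0.161, SD, n = 4), on both sides of the pool. They were -0.3123, 0.0546, -0.2692 and -0.2753 in the GL3 mice (-0.201 ± 0.171), where mouse B lay apart from the other three. They were -0.7066, -0.046, -0.2336 and -0.267 in the SEAP-M mice (-0.313 ± 0.28). All 4 SEAP-M mice were below the pool, and mouse A was the lowest of the 20. The PPARa siRNA mice had 0.0101, -0.0829, 0.1852 and 0.0523 (0.0412 ± 0.111), close to vehicle. The PPARa-M mice had 0.2171, 0.2582, 0.1561 and 0.1905 (0.205 ± 0.0431), all above the pool and within the narrowest range of the 5 groups. As a share of the pool, the group means were 48.6% in SEAP-M, 63.0% in GL3, 94.6% in vehicle, 110% in PPARa siRNA and 160% in PPARa-M mice. Every pair of neighbours in this order overlapped. The step exceeded the pooled SD only between GL3 and vehicle (0.176 against 0.166) and between PPARa siRNA and PPARa-M (0.164 against 0.0845).

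**Figure D1:**
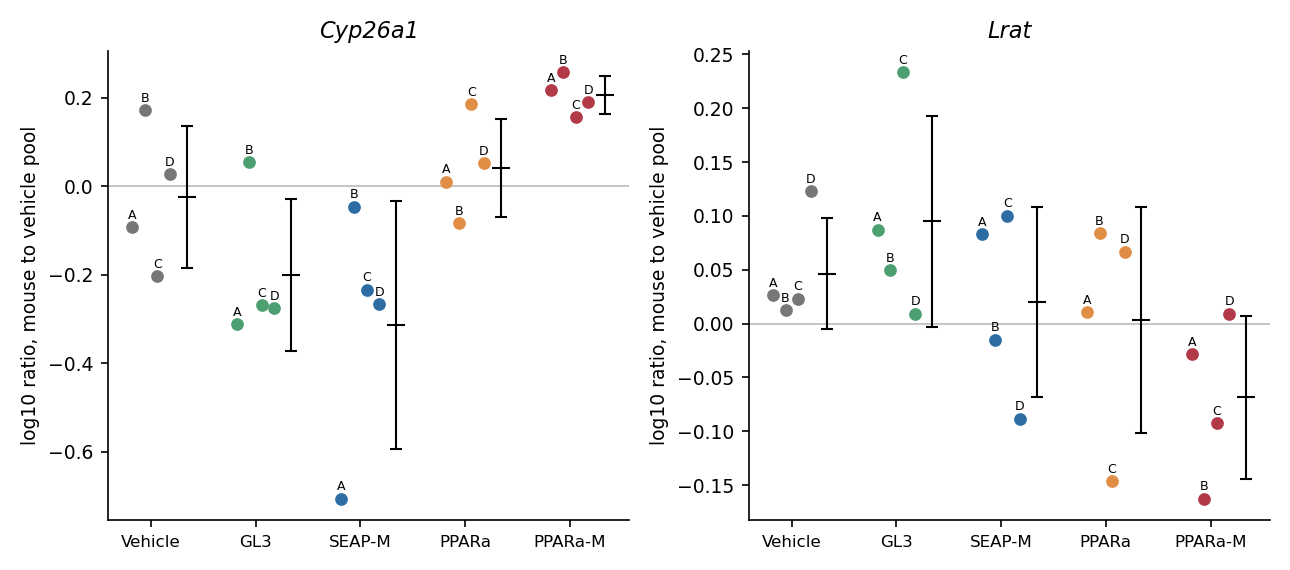
Log10 ratio of each mouse to the vehicle pool for Cyp26a1 (left) and Lrat (right), with 4 mice a group (letters A to D) and the mean ± SD as a bar beside the points. The 4 PPARa-M mice sit between 0.1561 and 0.2582 for Cyp26a1, above every GL3 and SEAP-M mouse, while for Lrat they sit between -0.1628 and 0.0092.

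The comparison of PPARa siRNA with GL3 asked whether Cyp26a1 also differed with the other Ppara siRNA, and the members were not chosen on it. Cyp26a1 was 1.74-fold higher with PPARa siRNA (log2 difference 0.80, SE 0.372, 95% CI 0.0218 to 1.58), but did not pass limma's test across all probes (p = 0.0446, adjusted p = 0.854) or the exact permutation test (p = 0.114). The groups overlapped through GL3 mouse B, and without that mouse the log2 difference was 1.09. That was the highest of the 8 settings that each left out 1 mouse of the GL3 and PPARa siRNA groups, and the lowest was 0.644. Of all probes, 0.145% were called in this comparison. Against vehicle, Cyp26a1 differed by 0.22 with PPARa siRNA (limma adjusted p = 1, 0.166% of probes called) and by -0.59 with GL3 (adjusted p = 1, 0.00851% called). The exact permutation p was 0.514 and 0.2, and the groups overlapped in both. As a description, Cyp26a1 was 3.3-fold higher with PPARa-M than with SEAP-M (log2 1.72), with no overlap between those groups. It was 1.7-fold higher with PPARa-M than in vehicle (log2 0.76) and 1.46-fold higher than with PPARa siRNA (log2 0.55), both with overlap, through vehicle mouse B and PPARa siRNA mouse C. In the SEAP-M mice it was 51.4% of vehicle, again with overlap. Without SEAP-M mouse A the difference of PPARa-M from SEAP-M was 1.29, and over the 8 settings that each left out 1 mouse of these groups it ran from 1.29 to 2.02.

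Lrat encodes lecithin retinol acyltransferase, which makes retinyl esters, and varied less than Cyp26a1. Its log10 ratios were 0.0265, 0.0125, 0.0232 and 0.1231 in vehicle mice A to D (mean 0.0463 ± 0.0515, SD, n = 4). They were 0.0871, 0.0497, 0.2336 and 0.0093 in the GL3 mice (0.0949 ± 0.0978) and 0.0831, -0.0148, 0.1001 and -0.0884 in the SEAP-M mice (0.02 ± 0.0882). All 8 vehicle and GL3 mice were above the pool, and the SEAP-M mice lay on both sides. The PPARa siRNA mice had 0.0105, 0.0838, -0.1465 and 0.0669 (0.00368 ± 0.105). The PPARa-M mice had -0.0285, -0.1628, -0.0925 and 0.0092 (-0.0687 ± 0.0755), which is the lowest mean of the 5 groups, where Cyp26a1 had its highest. The order of means was PPARa-M, PPARa siRNA, SEAP-M, vehicle and GL3. Every pair of neighbours overlapped, and no step between neighbours exceeded the pooled SD.

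Lrat was 76.7% of vehicle in the PPARa-M mice (log2 difference -0.38, SE 0.188, 95% CI -0.778 to 0.0139). All 4 PPARa-M mice were below all 4 vehicle mice (exact permutation p = 0.0286), by a margin of 0.0092 against 0.0125, but limma's test across all probes was not passed (p = 0.0577, adjusted p = 0.232), and 6.83% of all probes were called in this comparison. Lrat was lower with PPARa siRNA than with GL3 by -0.30 (SE 0.188, limma adjusted p = 0.958, exact permutation p = 0.343), where the groups overlapped. Its other tested differences were -0.14 for PPARa siRNA against vehicle, 0.16 for GL3 against vehicle, -0.09 for SEAP-M against vehicle (0.00426% of all probes called there) and -0.24 for PPARa-M against PPARa siRNA, with limma adjusted p from 0.461 to 1. The difference of PPARa-M from SEAP-M, which the choice of members used, was -0.29. Since Lrat is a stellate cell gene, the list of 20 stellate cell markers, all on the array with 32 probes, is given beside it. In the comparison of PPARa-M with vehicle 0 of these probes were called by limma (5 had an unadjusted p below 0.05, all higher), with a median of 0.08 beside -0.01 for all probes. The mean level of the list ran from 0.0413 to 0.286 (log2) in the PPARa-M mice and from -0.286 to 0.311 in the vehicle mice, which overlap.

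**Figure D2:**
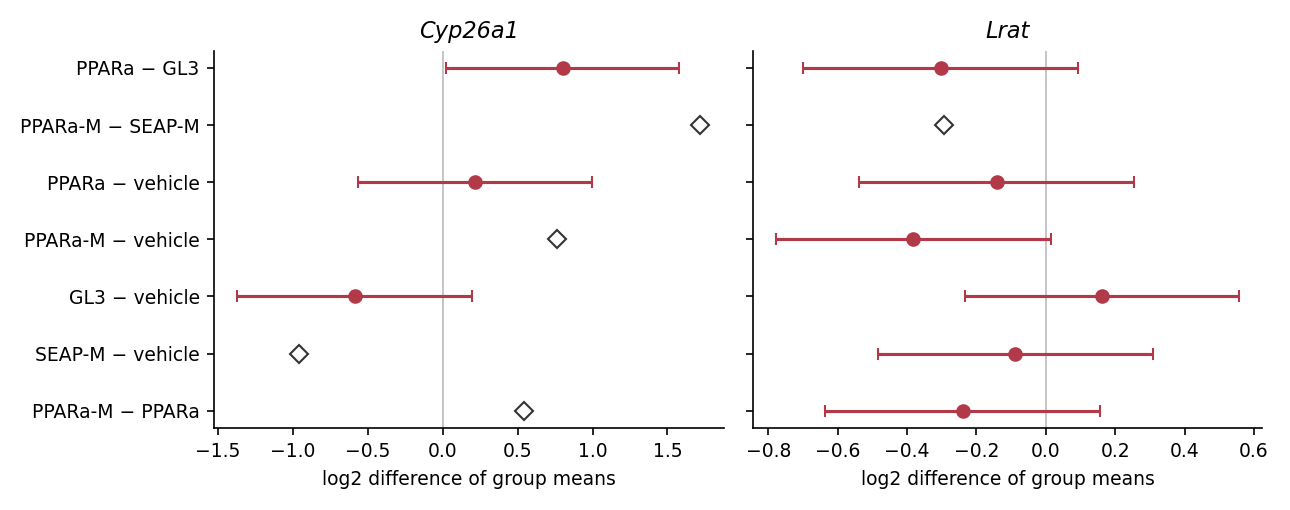
Log2 differences of group means for Cyp26a1 (left) and Lrat (right) in 7 comparisons. Filled points with 95% confidence intervals are tested differences, and open diamonds are differences that the choice of members used, drawn with no interval. Of the tested intervals, only that of Cyp26a1 for PPARa siRNA against GL3 leaves out 0, from 0.0218 to 1.58, before adjustment over all probes.

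Other genes of the pathway were taken from 6 lists with 103 genes, of which 81 were on the array with 148 probes: retinol oxidation and retinoic acid synthesis, retinoic acid breakdown, binding and transport, retinyl ester and carotenoid handling, receptors with their coregulators, and genes known to respond to retinoic acid. The lists were chosen with earlier results of these data known, so no share of called probes is read as a result about the pathway. With PPARa siRNA against GL3, 5 of the 148 probes were called (3.38%, beside 0.145% of all probes), and 4 of them were probes of the same gene. That gene was Egr1, an immediate early zinc-finger transcription factor that many stimuli besides retinoic acid induce. On its probe with the smallest p, Egr1 had 0.8127, 0.7968, 0.7889 and 0.5106 (log10) in PPARa siRNA mice A to D and -0.0113, 0.1485, -0.0538 and 0.1222 in the GL3 mice. In the vehicle mice it had -0.1234, -0.0189, 0.114 and -0.0751. All 4 PPARa siRNA mice were above all other 16 mice. Egr1 rose by 2.03 to 2.27 on the log2 scale over its 4 probes against GL3 (limma adjusted p 0.00353 to 0.0342) and by 2.04 to 2.5 against vehicle (adjusted p 0.00196 to 0.0325). The mean level of 12 lymphocyte and neutrophil markers ran from -0.114 to 1.47 (log2) in the PPARa siRNA mice and from -0.0492 to 0.272 in the GL3 mice, with 0 of 13 probes called, by limma, and 3 at an unadjusted p under 0.05. Its part in the Egr1 difference was not tested.

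The fifth probe was that of Rdh14, a short-chain dehydrogenase that reduces retinal and oxidises retinol. Rdh14 had -0.0786, -0.1577, -0.1986 and -0.1617 (log10) in PPARa siRNA mice A to D, below all GL3 mice at -0.0176, -0.0053, 0.0039 and -0.0695. It fell by 0.42 (log2) against GL3 (SE 0.0804, limma adjusted p = 0.0394) and by 0.49 against vehicle (adjusted p = 0.0146). The call against GL3 was lost in 12 of 17 alternative settings and that against vehicle in 6. In the PPARa-M mice Rdh14 had 0.0589, 0.036, 0.0629 and 0.1049, on the other side of vehicle, at 0.22 above it (adjusted p = 0.102). With PPARa siRNA against vehicle the called probes were again 5 of 148 (3.38%, beside 0.166% of all probes), the 4 of Egr1 and that of Rdh14. Lpl, the lipoprotein lipase, which can hydrolyse retinyl esters carried in lipoproteins, had 3 probes with differences of -0.52 to -0.41 from GL3, none of them called (limma adjusted p 0.189 to 0.74).

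With PPARa-M siRNA against vehicle, 9 of the 148 probes were called (6.08%), near the 6.83% of all probes, so the share says nothing particular about the pathway. Of the 9, 8 were lower and 1 higher, but at an unadjusted p under 0.05 the 148 probes were 22 lower and 18 higher. All probes called were 798 higher and 806 lower. In the list of retinol oxidation and retinoic acid synthesis (20 genes, 29 probes), 4 were called lower and 0 higher. Of the 29 differences 15 were negative and 14 positive, and at an unadjusted p under 0.05 there were 10 lower and 3 higher. Aldh1a7, a paralogue of the retinal dehydrogenase Aldh1a1, had -0.2744, -0.3056, -0.3408 and -0.3263 (log10) in PPARa-M mice A to D and 0.0617, -0.0483, 0.0896 and 0.1013 in the vehicle mice. It was 2.31-fold lower, with the PPARa-M mice below all other 16 mice (log2 difference -1.21, SE 0.095, limma adjusted p = 5.23e-06). The other siRNA groups lay between these levels, with Aldh1a7 at -0.53 from vehicle in SEAP-M, -0.35 in GL3 and -0.35 in PPARa siRNA mice (log2). None of these was called, but limma's unadjusted p was 3.1e-05, 0.00167 and 0.00189 in that order. The SEAP-M and vehicle mice did not overlap. Rdh16, a retinol dehydrogenase of liver, fell by 0.63 (SE 0.128, adjusted p = 0.0103). Aldh1a2, the retinal dehydrogenase known for retinoic acid synthesis in the embryo, fell by 0.39 (SE 0.0923, adjusted p = 0.0205), and Rdh5, a retinol dehydrogenase known from the retina, by 0.37 (SE 0.104, adjusted p = 0.0394). Adh4, an alcohol dehydrogenase that oxidises retinol, differed by -0.34 with no overlap of the groups and was not called (adjusted p = 0.0535). The median of this list was -0.03, beside -0.01 for all probes.

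In the list of retinyl ester and carotenoid handling (16 genes, 30 probes), 2 were called lower and 0 higher, with a median of -0.12. At an unadjusted p under 0.05 there were 7 lower and 1 higher. Ces1g, a carboxylesterase of a family that hydrolyses retinyl esters, had -0.2487, -0.287, -0.3605 and -0.3426 (log10) in PPARa-M mice A to D and -0.0418, 0.0327, -0.0722 and 0.0616 in the vehicle mice. It was 2.02-fold lower, again with the PPARa-M mice below all other 16 (log2 difference -1.01, SE 0.107, limma adjusted p = 0.000104). Ces3b, of the same family, fell by 0.74 on 1 of its 2 probes (adjusted p = 0.0384), and its other probe was at -0.49. In retinoic acid breakdown (4 genes, 5 probes), Ugt2b1, a glucuronosyltransferase, fell by 0.84 (adjusted p = 0.0353). Among receptors and coregulators (11 genes, 35 probes), Nr2f2, an orphan receptor that competes with RARs for their elements, rose by 0.58 on 1 of 2 probes (adjusted p = 0.0327). The coactivator Ncoa3 fell by 0.49 on 1 of 4 probes (adjusted p = 0.00604), while the other three lay between -0.03 and 0.04. In binding and transport (11 genes, 15 probes) 0 probes were called, by limma, with 2 at an unadjusted p under 0.05, and among genes known to respond to retinoic acid (19 genes, 34 probes) 0 were called, with 4 at an unadjusted p under 0.05, all higher. Of all 23493 probes, 5476 had such a p, a larger share than in either list. Of the 9 calls against vehicle, those of Aldh1a7 and Ces1g held in all 17 alternative settings, and the other seven were lost in 3 to 10 of them. Probes of gene families such as Ces and Ugt2b can also bind transcripts of paralogues, which was not tested. Among 8 hepatocyte markers with 21 probes, 3 probes were higher in the same comparison, those of Apob and Hnf4a (2 probes), and the mean level of the list ran from -0.103 to 0.254 (log2) in the PPARa-M mice and from -0.122 to 0.0493 in the vehicle mice. Of 8 endothelial markers (9 probes), both probes of Flt1, a VEGF receptor, were higher (0.56 and 0.59), as was Sox9 (0.55) of 5 cholangiocyte markers (7 probes). Of the pericentral hepatocyte (20 probes), Kupffer cell (10) and lymphocyte and neutrophil (13) markers 0 were called, with 3, 0 and 3 at an unadjusted p under 0.05. The part of these markers in the pathway differences was not tested.

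**Figure D3:**
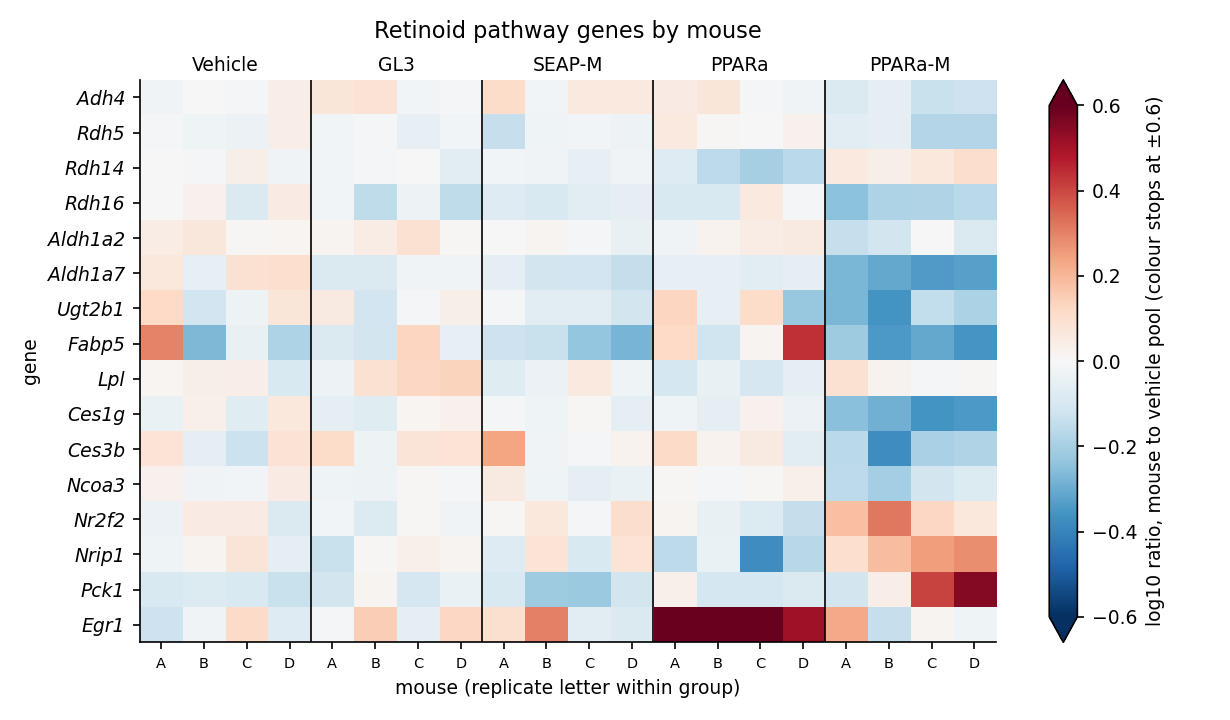
Log10 ratio to the vehicle pool, as colour, of 16 retinoid pathway genes (rows, 1 probe each) in each of the 20 mice (columns, by group). Egr1 stands out in the 4 PPARa siRNA mice, from 0.5106 to 0.8127, and Aldh1a7 and Ces1g in the 4 PPARa-M mice, from -0.3605 to -0.2487.

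In the comparison of PPARa-M with SEAP-M, on which the members were chosen, 7 of the 148 probes were called (4.73%, beside 2.69% of all probes), and nothing is read from this count. The values there, as a description, were -0.96 for Ces1g, -0.95 for Ces3b, -0.68 for Aldh1a7, -0.50 for Adh4, -0.40 for Ncoa3, 0.31 for Rdh14 and 1.27 for Pck1 (log2). Pck1, which encodes the gluconeogenic enzyme phosphoenolpyruvate carboxykinase, overlapped between these groups, since PPARa-M mouse A was at -0.109 and mouse D at 0.5524 (log10). Against vehicle, GL3 and SEAP-M siRNA had 0 pathway probes called by limma, beside 0.00851% and 0.00426% of all probes. At an unadjusted p under 0.05 they had 7 and 8 of the 148, beside 642 and 1310 of all 23493 probes. Both Ppara siRNAs share the vehicle mice as their control, so their differences from vehicle are given side by side only. Aldh1a7 was at -0.35 with PPARa siRNA and -1.21 with PPARa-M, Ces1g at -0.06 and -1.01, Rdh16 at -0.10 and -0.63, and Egr1 at 2.5 and 0.15.

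The 2 Ppara siRNAs were then compared directly, a comparison that was added after the values were seen. Of the 148 pathway probes 24 were called (16.2%, beside 10.2% of all probes), 16 lower and 8 higher with PPARa-M. Of the 16 lower, 4 were probes of Egr1. All probes called in this comparison were 1420 higher and 968 lower. Egr1 differed by -2.49 to -1.96 (log2) over its 4 probes. Aldh1a7 was 1.81-fold lower (limma adjusted p = 7.16e-05) and Ces1g 1.94-fold lower (7.16e-05), and neither was called for PPARa siRNA against vehicle. Rdh14 was 1.64-fold higher with PPARa-M (log2 0.71, adjusted p = 7.19e-05), the groups lying on opposite sides of vehicle. Nrip1, a corepressor of nuclear receptors that binds RARs, was 2.44-fold higher on 1 of its 3 probes (log2 1.29, adjusted p = 0.00065), while it was called in neither comparison with vehicle. Fabp5, a carrier of fatty acids and retinoic acid, was 2.62-fold lower (adjusted p = 0.0206), with PPARa siRNA mice between -0.1172 and 0.4394 (log10) and PPARa-M mice between -0.3519 and -0.2131. Cell type markers were called in the same comparison as well. Lower with PPARa-M were 2 of 13 lymphocyte and neutrophil probes, those of Ngp (log2 -2.01) and S100a8 (-2.38), and 1 of 10 Kupffer cell probes, that of Adgre1 (-0.44). Higher were 7 of 21 hepatocyte probes, which belonged to 3 of 8 genes, Hnf4a, Cyp2c29 and Apob. The median of that list was 0.0405 (log2), with 14 differences positive and 7 negative. Also higher were 2 of 9 endothelial probes, both of Flt1 (0.65 and 0.76), and 1 of 7 cholangiocyte probes, that of Epcam (0.39). The pericentral and the periportal hepatocyte markers had calls in both directions, and 0 of 32 stellate cell probes were called (9 at an unadjusted p under 0.05). The part of these markers in the pathway differences was not tested. Lrat was not called (log2 -0.24, 95% CI -0.636 to 0.156, adjusted p = 0.461, exact permutation p = 0.257).

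The genes whose pattern over the 20 mice was most like that of Cyp26a1, by Pearson correlation over all probes with a single symbol, were Pdlim1 (r = 0.815), Sfxn1 (0.798), Naglu (0.796), Taf8 (0.784) and Neu3 (0.779). Those most opposed were Tmem178 (-0.854), Ide (-0.821), Pura (-0.817), Ptp4a2 (-0.812) and Zfp773 (-0.811). Over all these probes the 5th and 95th percentiles of r were -0.52 and 0.454. These values rest on the PPARa-M and SEAP-M mice, by whose Cyp26a1 the members were chosen. In the other 12 mice the same genes had r of 0.386 to 0.632 and of -0.747 to -0.564, where the percentiles were -0.436 and 0.464, and Taf8 (0.386) lay inside them. Without SEAP-M mouse A alone, r was 0.637 to 0.739 and -0.806 to -0.676. The genes were picked by r over all 20 mice, so neither of these subsets is a separate check of them. All mice share the pool. For Lrat the most alike were Ppme1 (0.808), Ptpra (0.784) and 5830454D03Rik (0.776), and its r with Cyp26a1 was -0.506. The 4 probes of Ppara had r of -0.808 to -0.708 with Cyp26a1, which the choice of members does not leave independent. SEAP-M mouse A had both the highest mean Ppara (0.2415, log10) and the lowest Cyp26a1 (-0.7066). Without it the 4 probes had r of -0.698 to -0.601. For deviations of all 20 mice from their group means, r was -0.593 to -0.482, where the 5th percentile was -0.465. SEAP-M mouse A was kept there and lay farthest from its group mean in both genes. Its Ppara was 0.2415 against a group mean of 0.0529, and its Cyp26a1 -0.7066 against -0.313. The r of deviations was not computed without this mouse or its group, so it shows no relation within the other groups. These are descriptions with no test. In the 12 vehicle, GL3 and PPARa siRNA mice, whose Cyp26a1 the choice did not use, r was -0.311 (permutation p = 0.322, adjusted p = 0.457) and Spearman's rho -0.238 (permutation p = 0.457, adjusted p = 0.457, 2 tests). Leaving out PPARa siRNA mice B and D, the 2 with Ppara farthest from its median, gave r = -0.359, so no relation was shown in these mice. The permutation shuffled mice across the groups, so it does not separate differences between groups from those within them. Both measures of this test were picked after the values were seen.

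**Figure D4:**
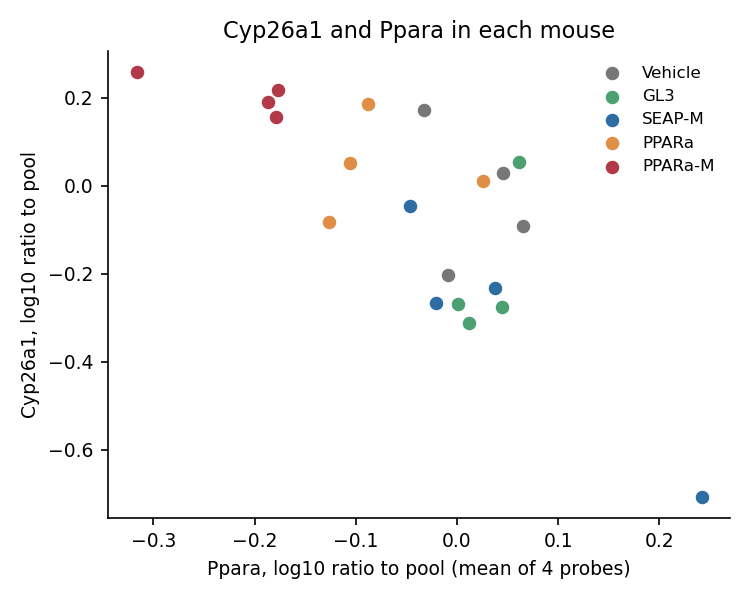
Cyp26a1 against the mean of the 4 Ppara probes in each of the 20 mice, both as log10 ratio to the vehicle pool, with 1 colour per group. The PPARa-M mice form the upper left corner and SEAP-M mouse A, at 0.2415 and -0.7066, lies alone at the lower right.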

How the data were processed

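The authors hybridised each mouse's liver RNA against vehicle pool RNA on 2-colour custom oligonucleotide arrays (Cy3 and Cy5) and deposited log10 ratios for 23493 probes, limited to 2 and -2 (40 values). Their normalization is not given in the sources used here. The log base was taken as 10 from that limit and the study's colour scales. Genes were named from the platform annotation: 18790 probes had a single symbol, 65 several and 4638 none. The deposited ratios were put on the log2 scale for limma 3.58.1 under R 4.3.3 (lmFit and eBayes, 1 mean per group over all 20 arrays, Benjamini-Hochberg within each comparison, threshold 0.05). Single values were also tested by two-sided exact permutation over the mice (scipy 1.17.1). With 4 mice a group, the number of arrays limits the precision. Replicates are separate mice. On simulated data with these groups, 92 to 94 of 100 probes changed 2-fold and 67 to 73 of 100 changed 1.5-fold were called. Those probes were drawn at random with their own spread. The shares are therefore not the chance of a call for a probe as variable as that of Cyp26a1 (SE 0.372). Promoter sequences are RefSeq, GRCm38.p6. Pathway genes were named where a probe was called in any of 6 comparisons (at most 6 a list and comparison) or had its list's largest difference for either Ppara siRNA against its control siRNA. Members, lists and tests were chosen with earlier results of these data known. The alternatives were other normalizations, weights, filters, samples and tests.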

Additional observations from a re-analysis of the deposited data

Results flagged for a closer look

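Of the 8 groups of 4 examined (all 5 for Lrat, and for Cyp26a1 those its choice did not use), 2 held a mouse that lay farther from the rest than Dixon's 95% critical value for 4 samples allows, and chance alone marks about 1 group in 20. GL3 mouse B was at 0.0546 (log10) for Cyp26a1, with a gap of 0.883 of the group's range to the next mouse. Vehicle mouse D was at 0.1231 for Lrat, with a gap of 0.873 of the range. With PPARa-M against PPARa siRNA, a comparison chosen after the data were seen, 24 of the 148 pathway probes were called (16.2%, beside 10.2% of all probes). They belonged to 19 genes, and 4 of the probes were those of Egr1. The 14 of these genes that the rule for named genes covers are given here. Higher with PPARa-M were Nrip1 (log2 1.29), Nr2f2 (0.779) and Rdh14 (0.714). Lower were Egr1 (-2.35), Fabp5 (-1.39), Ces1g (-0.954), Ces3b (-0.862), Aldh1a7 (-0.859) and Ugt2b1 (-0.769). Also lower were Rdh16 (-0.529), Ncoa3 (-0.484), Rdh5 (-0.466), Adh4 (-0.408) and Aldh1a2 (-0.361). Each value is that of the gene's probe with the smallest p. The other probes were at -0.00507 to 0.0156 for Ncoa3, 0.106 for Nr2f2, 0.335 and 0.365 for Nrip1, and -0.449 for Ces3b. Of 17 alternatives, the call was lost in 8 for Ugt2b1, 7 for Aldh1a2 and 5 each for Adh4 and Fabp5. It was lost in 3 each for Ces3b and Rdh16, 2 for Rdh5, and 1 each for Nr2f2 and Ncoa3.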

How the results depend on the processing

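Every alternative other than leaving out a mouse kept the direction of each Cyp26a1 and Lrat difference. The Cyp26a1 difference of PPARa siRNA from GL3 ran from 0.797 to 0.994 (log2, limma adjusted p 0.259 to 0.99) and from 0.644 to 1.086 without 1 mouse. That of PPARa-M from SEAP-M ran from 1.351 to 1.739, and that of SEAP-M from vehicle, -0.961, ran from -1.257 to -0.525 without 1 mouse, the last without SEAP-M mouse A. The Lrat difference of PPARa-M from vehicle (-0.382) passed the threshold by the exact permutation test alone (p = 0.0286). Lrat in PPARa siRNA against vehicle turned from -0.142 to 0.025 without PPARa siRNA mouse C (range -0.23 to 0.025), and in SEAP-M against vehicle from -0.0874 to 0.033 without SEAP-M mouse D (range -0.176 to 0.033). The counts of pathway probes called were 5 for PPARa siRNA against GL3, 7 for PPARa-M against SEAP-M, 5 for PPARa siRNA against vehicle, 9 for PPARa-M against vehicle and 24 for PPARa-M against PPARa siRNA. In that order they were 2, 2, 3, 3 and 11 at a threshold of 0.01, 1, 0, 1, 2 and 10 after quantile normalization, 3, 1, 3, 2 and 11 with arrays scaled to 1 interquartile range, and 2, 2, 2, 2 and 11 with only the 2 compared groups in the fit, which has fewer samples. With gene means, which make fewer features, the first, the third and the last were 1, 2 and 15, and array weights gave 12 for PPARa-M against SEAP-M. The share of all probes called is not given for these settings or for those below. A change in these counts therefore cannot be read as particular to the pathway. Apart from the changes set by construction, the cause was not tested. Leaving out 1 mouse gave 1 to 5 for PPARa siRNA against GL3 (1 without GL3 mouse C, 3 without GL3 mouse B or PPARa siRNA mouse B or C) and 3 to 5 for PPARa siRNA against vehicle (3 without PPARa siRNA mouse C). It gave 2 to 8 for PPARa-M against SEAP-M (2 without SEAP-M mouse A, 4 without PPARa-M mouse C), 4 to 10 for PPARa-M against vehicle (4 without vehicle mouse D, 5 without vehicle mouse A) and 0 to 1 for SEAP-M against vehicle (1 without vehicle mouse B). The 17 alternatives followed the probe of each gene with the smallest p, or, with gene means, all its probes. In all of them Egr1, Aldh1a7 and Ces1g kept their calls for the comparisons given with them. After quantile normalization, and without GL3 mouse C, 1 pathway probe was called for PPARa siRNA against GL3. The other probes of Egr1 were therefore not called there. The calls against vehicle in PPARa-M mice were lost in 10 for Rdh5, 8 each for Ces3b, Nr2f2 and Ugt2b1, 7 for Aldh1a2, 4 for Ncoa3 and 3 each for Rdh16 and Ppara.

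Whether the replicate letters pair mice cannot be told from these values. Deviations of same-letter mice had r from -0.2 to 0.312, over 0.1 in 13 of 40 pairs. Mice of different letters were not compared in this way. With the replicate block the Cyp26a1 difference of PPARa siRNA from GL3 stayed 0.803 and that of Lrat in PPARa-M from vehicle -0.382, neither of them called, and the pathway counts in the order above were 4, 6, 5, 10 and 22. The alternatives planned for Rarb and Rbp4 were not run, since neither had a probe used here. A difference on 4 arrays a group can be missed, as the simulated 1.5-fold changes were in part.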
